A study of Mus musculus with 4 samples.

Results

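The gene set examined here comprised 50 genes of the dividing cell, 26 that act in S phase and 24 that act in mitosis. They were taken by gene symbol from a table of 33677 symbols, and all 50 were present, passed the low-count filter and were tested. The cells were PyMT-A, a mammary tumour cell line of FVB/NJ background named for the polyoma middle T oncogene. The vector line had been infected with PMSCV-puro virus and the Jagged1 line with PMSCV-Jagged1 virus, so that all cells compared shared the PyMT-A background and a retroviral infection. The culture medium was DMEM with serum and antibiotics for each line. Messenger RNA was read as gene counts in 2 libraries per line, numbered 1 and 2 as the replicates in the sample titles. In the count table, vector 1 and 2 are the columns Acon_1 and Acon_3, and Jagged1 1 and 2 are Am_2 and Am_4. The comparison of the lines asks how tumour cells differ when they carry extra Jagged1, a ligand of Notch receptors. The labels do not say whether the 2 libraries of a line came from separate cultures, so a p-value here reflects the spread between libraries, and that spread may be technical.

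A cell copies its DNA once per cycle. In G1, the origin recognition complex, Cdc6 and Cdt1 load the ring of Mcm2 to Mcm7 onto DNA, and cyclin E with its kinase starts replication once E2F transcription factors are released from the retinoblastoma protein. Mitosis follows on a later wave of transcription, in which cyclin B with Cdk1 drives entry, Aurora and Polo kinases build the spindle and the anaphase-promoting complex ends the phase. Replication genes are classic targets of E2F, whereas many mitosis genes carry CCAAT boxes bound by NF-Y and a cell cycle genes homology region (CHR) bound by the DREAM and MuvB complexes. In tumours, both sets are widely read as a measure of proliferation.

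The promoters of the members showed these elements in different shares. The RefSeq promoter table (GRCm38.p6, 250 bases before to 50 bases after each start) matched 40 of the 50 members, 21 S phase genes with 25 windows and 19 mitosis genes with 19 windows. Both strands were searched for the letters CCAAT, for TTTGAA as the CHR, and for TTTCCCGC and TTTGGCGC as E2F sites. Each motif was counted separately, so that matches of different motifs may share bases. CCAAT stood in 84.2% of the mitosis windows and 52.0% of the S phase windows, against 37.9% of the 11514 windows of all tested genes and 37.4% of the 32851 windows in the table. TTTGAA stood in 14 of the 19 mitosis windows (73.7%), in 3 of the 25 S phase windows (12.0%), in 11.9% of the windows of tested genes and in 17.9% of all windows. CCAAT and TTTGAA stood together in 13 mitosis windows (68.4%) and in 2 S phase windows (8.0%), against 4.99% for tested genes and 6.95% for all windows. Either E2F sequence was found in 8 of the 25 S phase windows (32.0%), those of Cdc6, Cdt1, Mcm3, Mcm5, Mcm6, Mcm7, Pola1 and Rfc3, and in 0 of the 19 mitosis windows. The same letters stood in 2.92% of the windows of tested genes and in 1.56% of all windows. A match describes letters in a window and not a bound site.

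The 150 bases before the start in the RefSeq table (GRCm38.p6) are printed for 6 members, 5′ to 3′ on the strand of the gene, to show the windows of 3 cyclin B and Cdk1 genes, of 2 licensing genes and of the regulator E2f1. Capitals mark matches on either strand to CCAAT, to TTTGAA and to the E2F sequences.
Ccnb1 chr13:100786487-100786636 (minus strand): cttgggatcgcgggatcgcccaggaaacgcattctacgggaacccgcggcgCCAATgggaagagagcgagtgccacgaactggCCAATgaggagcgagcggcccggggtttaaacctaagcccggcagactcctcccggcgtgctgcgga
Ccnb2 chr9:70421555-70421704 (minus strand): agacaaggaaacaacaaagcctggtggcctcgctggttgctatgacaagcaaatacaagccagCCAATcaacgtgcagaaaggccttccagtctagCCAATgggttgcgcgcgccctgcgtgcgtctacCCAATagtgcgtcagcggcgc
Cdk1 chr10:69352913-69353062 (minus strand): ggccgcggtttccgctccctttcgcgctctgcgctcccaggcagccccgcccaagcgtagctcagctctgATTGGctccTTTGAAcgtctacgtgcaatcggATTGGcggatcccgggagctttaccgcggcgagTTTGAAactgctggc
Cdc6 chr11:98908001-98908150 (plus strand): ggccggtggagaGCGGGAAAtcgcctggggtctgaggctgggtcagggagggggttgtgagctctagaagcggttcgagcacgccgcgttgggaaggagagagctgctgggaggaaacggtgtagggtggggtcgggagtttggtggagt
Mcm5 chr8:75109359-75109508 (plus strand): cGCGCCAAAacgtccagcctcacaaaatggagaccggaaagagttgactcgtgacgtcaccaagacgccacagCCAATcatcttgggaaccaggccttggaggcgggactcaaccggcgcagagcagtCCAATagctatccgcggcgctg
E2f1 chr2:154569427-154569576 (minus strand): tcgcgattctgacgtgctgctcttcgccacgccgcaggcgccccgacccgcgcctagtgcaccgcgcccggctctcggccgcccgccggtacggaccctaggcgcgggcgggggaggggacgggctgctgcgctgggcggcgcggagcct
Counted from the start, with -1 as the base before it, the Ccnb1 stretch holds CCAAT from -99 and from -67, and Ccnb2 holds CCAAT from -87, -54 and -21. The TTTGAA of Ccnb2 lies outside the printed bases, from -167 and again after the start. Cdk1 holds TTTGAA from -71 and -15, each near a CCAAT in reverse. The Cdc6 stretch has an E2F sequence at -138 and the Mcm5 stretch has one at -149 with CCAAT from -77 and -22. In the E2f1 stretch none of these letters were found. Starts differ between annotations: in GENCODE M21 all 150 printed bases of E2f1 and of Cdc6 lie inside the gene, as do 84 of those of Ccnb1, 26 of those of Cdk1 and 0 of those of Ccnb2 and Mcm5.

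The labels were checked with Jag1 itself, which was at 10.5 and 9.11 CPM (counts scaled to library size with TMM factors) in vector 1 and 2 and at 274 and 324 CPM in Jagged1 1 and 2. It was the only gene past the threshold between the lines, with a log2 fold change of 4.93 ± 0.20 (SE, n = 2 against 2, adjusted p = 0.0111 by edgeR's quasi-likelihood test with Benjamini-Hochberg adjustment). The log2 fold change of Jag1 was 5.06 without vector 1, 4.82 without vector 2, 5.04 without Jagged1 1 and 4.80 without Jagged1 2. The species of the cDNA in the virus is not given, and reads of the virus and of the cell's own gene were not separated. Total counts were 15609720 and 12136227 in vector 1 and 2 and 20835208 and 13549258 in Jagged1 1 and 2, at which 3 counts correspond to 0.144 to 0.247 CPM. Of 8 epithelial markers the summed level lay between 3855 and 4288 CPM in the 4 libraries, although Krt19 was at 0 counts in 3 of them. Replicates differed by more than counting noise, with a chi-square of 32.3 per degree of freedom in the vector line and 50.6 in the Jagged1 line.

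Summed over its genes, each set took a larger share of the counts in the number 1 library of a line than in the number 2 library. The S phase share was 0.339% in vector 1 (95% interval 0.336 to 0.342, exact binomial) and 0.268% in vector 2 (0.265 to 0.271). For the Jagged1 line it was 0.362% in library 1 (0.359 to 0.365) and 0.220% in library 2 (0.218 to 0.223). The mitosis share was 0.367% in vector 1 (0.364 to 0.370) and 0.347% in vector 2 (0.344 to 0.350), against 0.469% in Jagged1 1 (0.466 to 0.472) and 0.330% in library 2 of that line (0.327 to 0.333). Those intervals cover counting error only. Both number 1 libraries stood above both number 2 libraries for each set, and the lines overlapped. In scaled sums, number 1 exceeded number 2 by 1.32-fold for S phase and 1.10-fold for mitosis in the vector line, and by 1.69-fold and 1.46-fold in the Jagged1 line. Jagged1 over vector came to 1.04-fold for S phase and 1.25-fold for mitosis among the number 1 libraries, and to 0.815-fold and 0.942-fold among the number 2 libraries. In bulk RNA, fewer cells in S phase or mitosis and less of these RNAs per cell cannot be told apart.

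**Figure D1:**
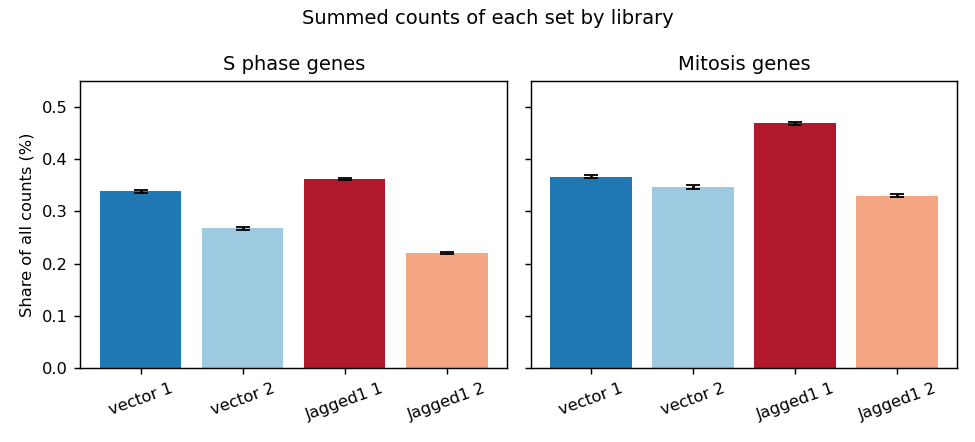
Share of all counts (%) taken by the 26 S phase genes and the 24 mitosis genes, 1 bar per library with its exact binomial 95% interval, which covers counting error only. In both panels the number 1 bar of a line stands above its number 2 bar, from 0.362% to 0.220% for S phase genes in the Jagged1 line.

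Between the lines, no member passed the threshold. With an adjusted p under 0.05, 0 of 50 members were called by edgeR's quasi-likelihood test with Benjamini-Hochberg adjustment over 13299 tested genes, where the share called among all tested genes was 0.00752%. At an unadjusted p under 0.05 the count of members was also 0, against 3.96% of tested genes. DESeq2 called 0 members and 0.353% of tested genes, and the fit with a replicate block called 0 members and 0.128%. The lowest unadjusted p of a member was 0.142, for Nusap1. Of the 26 S phase genes, 7 had a log2 fold change above 0 and 19 below it, with a median of -0.10 and a range from -0.24 to 0.40. Of the 24 mitosis genes, 18 were above 0 and 6 below, with a median of 0.06 and a range from -0.13 to 0.48. Among all tested genes, 49.5% were above 0 and 50.5% below, with a median of -0.003. The directions differed between library numbers: the median difference of Jagged1 from vector was 0.03 for S phase genes in number 1 and -0.29 in number 2, and 0.17 and -0.08 for mitosis genes. In number 2, 26 of 26 S phase genes and 18 of 24 mitosis genes were lower in Jagged1, whereas in number 1, 16 and 23 were higher. Of all 13299 tested genes, 7014 were lower in Jagged1 in number 2 and 6614 were higher in number 1. Without Jagged1 1 the median log2 fold changes of the S phase and mitosis genes were -0.48 and -0.21, and without Jagged1 2 they were 0.21 and 0.30. Without vector 1 the S phase median was 0.14 and the mitosis median 0.21, and without vector 2 they were -0.24 and -0.11. The split by sign moved with the library left out: 24 S phase and 24 mitosis genes were above 0 without vector 1, 2 and 9 without vector 2, 0 and 4 without Jagged1 1, and 25 and 24 without Jagged1 2.

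Only Mki67 and Nusap1 stood in both Jagged1 libraries above both vector libraries, 2 of 24 mitosis genes and 0 of 26 S phase genes, against 13.9% of all tested genes. Mki67 codes for the Ki-67 protein that coats mitotic chromosomes and is the common stain for cycling cells. Its level was 422 and 486 CPM in vector 1 and 2 and 653 and 496 CPM in Jagged1 1 and 2, a log2 fold change of 0.34 ± 0.20 (SE). The nearest values of the lines, 486 and 496 CPM, were close together. Nusap1, which bundles spindle microtubules, stood at 71.4 and 72.9 CPM in the vector libraries and at 111 and 76.0 CPM in the Jagged1 libraries, with a log2 fold change of 0.37 ± 0.22. Here too the second Jagged1 library lay near the vector libraries. The reverse order, both Jagged1 levels under both vector levels, was found for 0 members and for 15.1% of all tested genes.

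**Figure D2:**
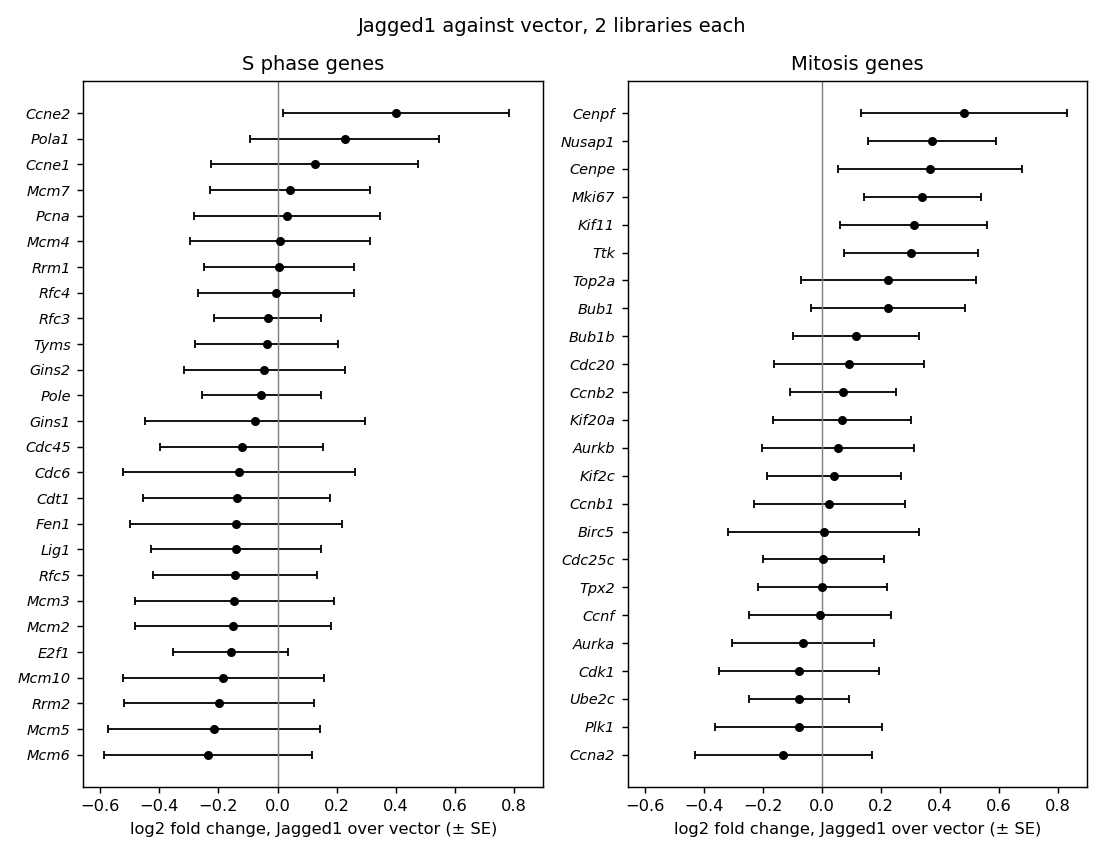
Log2 fold change of Jagged1 over vector for each member (points, 2 libraries per line), with SE bars, S phase genes left and mitosis genes right. No member passed the threshold, and the points lie between -0.24 and 0.48.

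**Figure D3:**
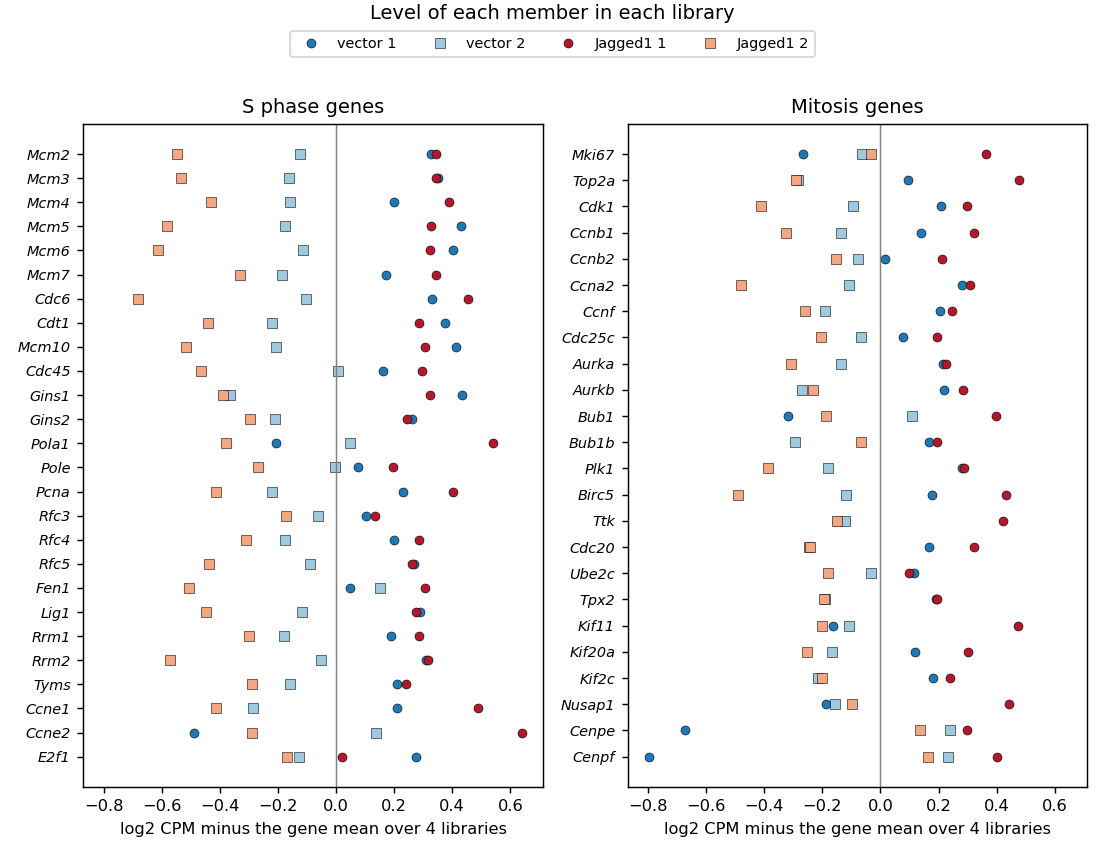
Level of each member in each library as log2 CPM minus the mean of that gene over the 4 libraries, with circles for number 1, squares for number 2, blue for vector and red for Jagged1. For S phase genes the squares lie left of the circles in 23 of 26 rows and the Jagged1 2 square is the lowest point in 25 of 26.

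Between library numbers, most members of both sets were lower in number 2. In the vector line, 23 of 26 S phase genes were lower in number 2 than in number 1, with a median log2 difference of -0.39, and in the Jagged1 line 26 of 26 were lower, with a median of -0.79. Over the 2 lines, 49.9% of the differences of all tested genes were below 0. Their medians were 0.001 in vector and -0.0003 in Jagged1. In both lines at once, 23 of 26 S phase genes and 17 of 24 mitosis genes were lower in number 2, against 34.1% of all tested genes. Both number 2 libraries lay below both number 1 libraries for the same numbers of members, 23 and 17, against 26.0% of all tested genes. Mitosis genes were lower in number 2 in 17 of 24 cases in the vector line, with a median of -0.29, and in 24 of 24 in the Jagged1 line, with a median of -0.54. The difference was lower (more negative) in the Jagged1 line than in the vector line for 47 of the 50 members, against 52.4% of all tested genes. Cenpf and Cenpe are among the 47, although their differences were larger in size in the vector line. Of the 50 members, 39 had their highest level in Jagged1 1 and 11 in vector 1, and 40 had their lowest level in Jagged1 2. The library of the highest and lowest level was not counted over all tested genes, so these counts do not set the members apart. A library number is no group of the study, so these differences are given without a test.

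Some other RNA differed between library numbers as well. Of 8 leukocyte markers, 6 were higher in number 2 in both lines, with summed levels of 1.72 and 10.5 CPM in vector 1 and 2 and 1.79 and 11.1 CPM in Jagged1 1 and 2. Cd3e was at 0 in all 4 libraries. Of 5 endothelial markers, 3 were higher in number 2 in both lines, and their sums were 0.792 and 2.93 CPM in the vector line and 0.580 and 6.35 CPM in the Jagged1 line. Fibroblast markers summed to 4.42 and 6.99 CPM in the vector line and to 10.1 and 61.6 CPM in the Jagged1 line. Of these 7, 1, Col1a1, was higher in number 2 in both lines, and Lum was at 0 in all. In the Jagged1 line, number 2 minus number 1 (log2) was 3.87 and -0.25 for the 2 fibroblast markers that passed the low-count filter. Only 3 of 8 leukocyte, 1 of 5 endothelial and 2 of 7 fibroblast markers passed the low-count filter. The others had too few reads to be tested. Of 13299 tested genes, 6677 were higher in number 2 in the vector line and 6646 in the Jagged1 line, each line counted alone. A stricter order, both number 2 libraries above both number 1 libraries, held for 25.8% of tested genes. The share higher in both lines at once was not counted over all tested genes, so the marker counts do not set the markers apart. Reads assigned to the 18S ribosomal RNA entry Rn18s-rs5 were 0.982% of the counts of vector 1 and 0.0735% of vector 2. In Jagged1 1 and 2 they were 0.177% and 0.0810%. Other copies of 18S were not added to this share. The part of these differences in the members' values was not tested.

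The licensing genes code for the Mcm2 to Mcm7 ring and for Cdc6 and Cdt1, which help to load it in G1. They were lower in number 2 in 8 of 8 cases in each line. Median log2 differences were -0.48 in the vector line and -0.88 in the Jagged1 line. Cdc6, the ATPase that helps to place the helicase, was at 53.5 and 39.6 CPM in vector 1 and 2 and at 58.4 and 26.5 CPM in Jagged1 1 and 2. Number 1 exceeded number 2 by 1.35-fold in the vector line and 2.21-fold in the Jagged1 line, while the line difference was -0.13 ± 0.39 (log2, SE). Mcm2, a helicase subunit, was at 191 and 140 CPM in the vector libraries and at 194 and 104 CPM in the Jagged1 libraries. Mcm5 stood at 285 and 187 CPM in vector and 265 and 141 CPM in Jagged1. For Mcm6 the values were 328 and 229 CPM in vector and 311 and 162 CPM in Jagged1, with a line difference of -0.24 ± 0.35, the lowest of the members. For each of these subunits the number 1 libraries of the lines lay closer together than the number 2 libraries, and Jagged1 2 was the lowest library. The other licensing genes, Mcm3, Mcm4, Mcm7 and the loading factor Cdt1, had number differences from -0.60 to -0.36 in vector and from -0.88 to -0.68 in Jagged1.

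Of the factors that turn the loaded ring into a moving helicase, 4 of 4 were lower in number 2 in both lines, with medians of -0.55 and -0.74. Mcm10, which acts at that step, was at 79.7 and 51.9 CPM in vector and 74.0 and 41.8 CPM in Jagged1. Gins1, a subunit of the GINS complex, was at 20.6 and 11.8 CPM in vector and 19.1 and 11.6 CPM in Jagged1, the most negative number difference of any member in the vector line (-0.80). The libraries of the lines overlapped for both genes. Gins2 and the helicase cofactor Cdc45 had number differences of -0.47 and -0.15 in vector and -0.54 and -0.76 in Jagged1. In GENCODE M21, 67.3% of the exonic bases of Gins2 overlap Gse1 on the other strand, and reads of such pairs cannot be told apart because the strand setting of the counting is not given.

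At the replication fork, 6 of 8 genes were lower in number 2 in both lines. Pcna, the sliding clamp that tethers the polymerases, had the highest level per length of all members, a mean of 127 CPM per kb of exon, and GENCODE names 2 pseudogene copies of it, Pcna-ps1 and Pcna-ps2, which can share reads with it. Its values were 349 and 255 CPM in vector 1 and 2 and 394 and 224 CPM in Jagged1 1 and 2, and the mean was 302 ± 66.3 CPM (SD, n = 2) in vector and 309 ± 120 CPM in Jagged1. The line difference of 0.03 ± 0.32 (log2, SE) was small beside the spread within either line. Pola1, the catalytic subunit of the priming polymerase, was at 75.6 and 90.1 CPM in vector and at 127 and 67.0 CPM in Jagged1, so that both the highest and the lowest library were Jagged1 libraries. The flap nuclease gene Fen1, the lowest member per length at 2.96 CPM per kb, was at 7.26 and 7.81 CPM in vector and 8.70 and 4.90 CPM in Jagged1. Of its exonic bases, 78.8% overlap an antisense gene. The ligase Lig1, polymerase Pole and the clamp loader subunits Rfc3, Rfc4 and Rfc5 were lower in number 2 in both lines, by log2 differences between -0.41 and -0.08 in vector and between -0.72 and -0.31 in Jagged1.

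The suppliers of nucleotides were lower in number 2 in 3 of 3 cases in both lines, with medians of -0.37 and -0.59. Rrm2, the regulated subunit of ribonucleotide reductase, was at 225 and 175 CPM in vector and 227 and 122 CPM in Jagged1. The number 1 libraries of the lines were nearly equal, and Jagged1 2 lay below vector 2. Its partner Rrm1 and thymidylate synthase (Tyms, which has a named pseudogene copy) had number differences of -0.37 and -0.37 in vector and -0.59 and -0.53 in Jagged1.

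At the G1 to S switch the 3 genes did not move together. Ccne1, a cyclin E gene, was at 28.5 and 20.2 CPM in vector and at 34.5 and 18.5 CPM in Jagged1, lower in number 2 in both lines. Ccne2, the other cyclin E gene, was at 13.5 and 21.0 CPM in vector and at 29.8 and 15.6 CPM in Jagged1, lowest in vector 1, and its line difference of 0.40 ± 0.38 (log2, SE) was the largest of the S phase genes. E2f1, the transcription factor that drives these genes, was at 111 and 84.0 CPM in vector and 93.2 and 81.7 CPM in Jagged1, a line difference of -0.16 ± 0.19. For all 3 genes the values of the lines overlapped. In Ccne2, 17.4% of the exonic bases overlap Ints8 on the other strand.

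Among the mitosis genes, the cyclins and the Cdk1 engine were lower in number 2 in 6 of 6 cases in both lines, with medians of -0.29 and -0.58. Cdk1, the kinase of mitotic entry, was at 180 and 146 CPM in vector and at 192 and 117 CPM in Jagged1. Ccnb1, its cyclin B partner, was at 168 and 139 CPM in vector and 191 and 122 CPM in Jagged1, and Ccna2, cyclin A of S phase and G2, was at 205 and 157 CPM in vector and 209 and 121 CPM in Jagged1. For all 3 genes Jagged1 1 was the highest library and Jagged1 2 the lowest, so that the vector libraries lay between them. The line differences were -0.08 ± 0.27 for Cdk1, 0.03 ± 0.25 for Ccnb1 and -0.13 ± 0.30 for Ccna2 (log2, SE). Ccnb2, Ccnf and the Cdk1-activating phosphatase Cdc25c had line differences from -0.01 to 0.07. GENCODE names pseudogene copies of Ccnb1 and Ccnb2, which can share reads with them.

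Top2a, the topoisomerase that untangles sister chromosomes, was at 683 and 525 CPM in vector and 889 and 523 CPM in Jagged1, with means of 604 ± 111 and 706 ± 259 CPM (SD, n = 2). The number 2 libraries of the lines were nearly equal, and the number 1 libraries were not. The kinases and checkpoint genes were lower in number 2 in both lines in 5 of 7 cases. Plk1, the Polo kinase, was at 124 and 89.8 CPM in vector and 124 and 77.9 CPM in Jagged1, and Birc5, survivin of the chromosomal passenger complex, was at 294 and 239 CPM in vector and 350 and 185 CPM in Jagged1. Ttk, the kinase that starts checkpoint signalling, was at 47.9 and 48.8 CPM in vector and 71.2 and 47.8 CPM in Jagged1. For Ttk, Jagged1 1 alone stood above the other libraries, which were nearly equal. The Aurora kinases Aurka and Aurkb and the checkpoint protein Bub1b were lower in number 2 in both lines, by -0.35, -0.49 and -0.46 in vector and -0.53, -0.52 and -0.26 in Jagged1 (log2). The checkpoint kinase Bub1 was at 58.4 and 78.5 CPM in vector and 95.9 and 64.0 CPM in Jagged1.

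The anaphase-promoting complex acts through the activator Cdc20 and the conjugating enzyme Ube2c, which were lower in number 2 in both lines, by -0.41 and -0.15 in vector and by -0.56 and -0.28 in Jagged1. Of the 7 spindle and kinetochore genes, 3 were lower in number 2 in both lines, Tpx2, Kif20a and Kif2c. Cenpf, a large kinetochore protein, was at 78.3 and 160 CPM in vector 1 and 2 and at 180 and 153 CPM in Jagged1 1 and 2. Its vector 2 level was 2.05-fold that of vector 1, and its line difference of 0.48 ± 0.35 (log2, SE) was the largest of the 50 members. Cenpe, the kinetochore motor, was at 98.3 and 185 CPM in vector and 193 and 172 CPM in Jagged1, 1.88-fold higher in vector 2 than in vector 1, with a line difference of 0.37 ± 0.31. For both genes vector 1 stood apart and the other 3 libraries lay together. Kif11, the motor that separates spindle poles, was at 111 and 115 CPM in vector and 172 and 108 CPM in Jagged1, with Jagged1 1 alone above the rest.

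**Figure D4:**
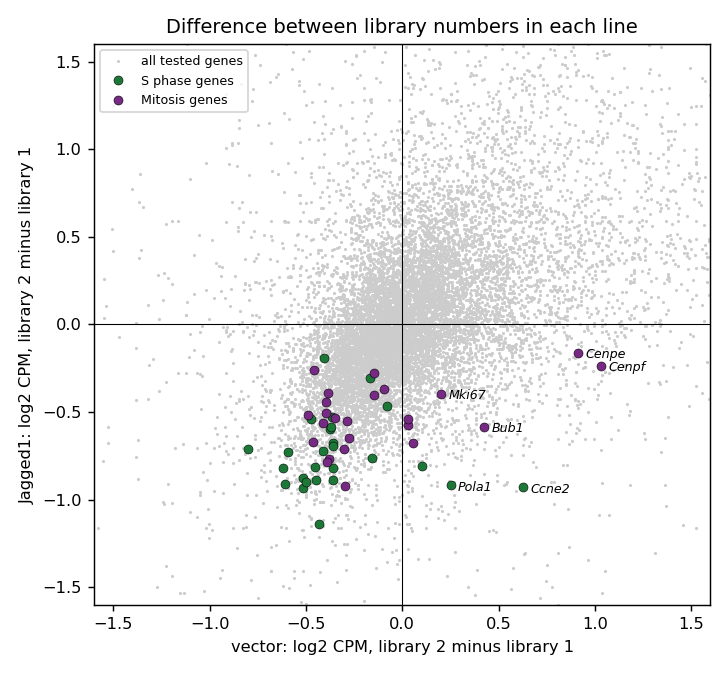
Log2 CPM of library 2 minus library 1 in the vector line (horizontal) against the Jagged1 line (vertical), for S phase genes, mitosis genes and all tested genes within 1.6 of 0 (636 genes beyond that are not drawn). All 50 members lie below 0 on the vertical axis and 10 lie to the right of 0 on the horizontal axis, led by Cenpf at 1.03 and -0.24.

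In all, 10 members were higher in vector 2 than in vector 1 and lower in Jagged1 2 than in Jagged1 1. They were Cenpf, Cenpe, Bub1, Mki67, Kif11, Nusap1, Ttk, Ccne2, Pola1 and Fen1. Of 13299 tested genes, 6653 were lower in number 2 in the Jagged1 line, and 4540 of these were lower in the vector line too. The rest of the 6653 were not, so many genes outside the members had the same pattern. Across the 50 members the number differences of the lines had a Pearson r of 0.33 and a Spearman rho of 0.31, and across the 13299 tested genes r was 0.43 and rho 0.47. These points are genes of the same 4 libraries, not replicates. Transcript GC content moved with the number difference in the vector line: over the 50 members r was -0.54 and rho -0.56, and over the 11449 tested genes with an annotation r was -0.27 and rho -0.28. In the Jagged1 line the values were 0.06 and 0.04 for the members and 0.02 and 0.04 for all annotated genes. Of the 10 members higher in vector 2, 9 lay below the median GC content of the members (48.1%), against 16 of the other 40. Ccne2 had the lowest GC content at 36.3%, and Cenpf and Cenpe had 43.3% and 42.9% with 15433 and 8620 exonic bases. For log2 exonic length, r was 0.41 and rho 0.28 over the members in the vector line, and 0.12 and 0.12 in the Jagged1 line. Over all annotated genes r was 0.12 and rho 0.17 in vector, and -0.01 and 0.02 in Jagged1. The part of GC content and length in the members' differences was not tested.

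**Figure D5:**
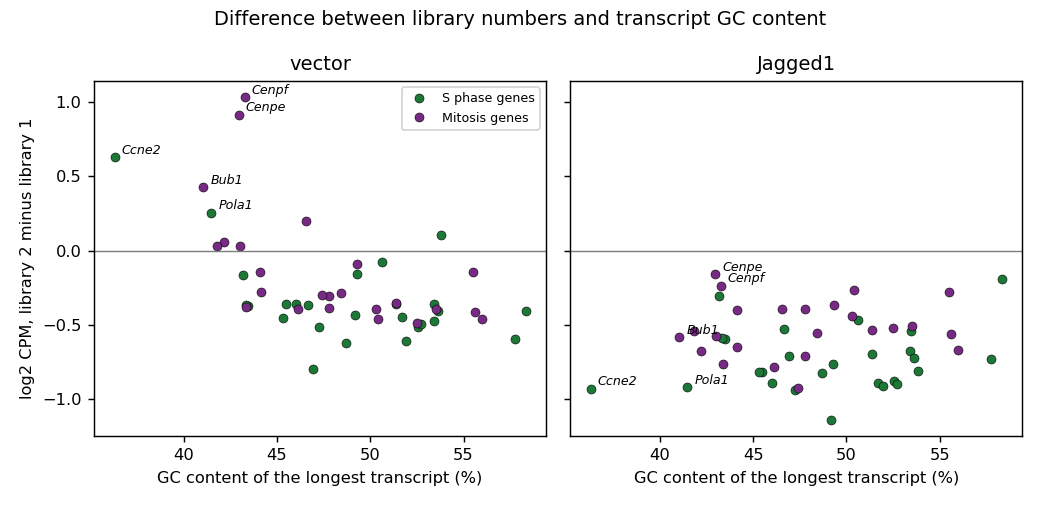
GC content of the longest transcript (%) against log2 CPM of library 2 minus library 1, in the vector line (left) and in the Jagged1 line (right), 1 point for each of the 50 members. In the vector panel the members run from upper left to lower right (r = -0.54), and in the Jagged1 panel they do not (r = 0.06).

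The other genes of both pathways were counted in the same way. Of 50 other replication genes, 0 passed the threshold, and 21 were above 0 and 29 below between the lines, with a median of -0.02. Both number 2 libraries lay below both number 1 libraries for 40 of them and above for 3, against 26.0% and 25.8% of all tested genes. The farthest from 0 were the helicase genes Mcm8 (-0.30 ± 0.20, log2, SE) and Hells (0.34 ± 0.31), the origin subunit Orc1 (-0.27 ± 0.37) and the single-strand binding subunit Rpa3 (0.25 ± 0.24). Of 57 other mitosis genes in the table, 0 passed, and 37 were above 0 and 20 below with a median of 0.03. For 39 of the 57 both number 2 libraries lay below both number 1 libraries, and for 3 they lay above. The kinesin Kif18a (0.56 ± 0.35), the cohesin protector Sgol2a (0.55 ± 0.25), the kinetochore subunit Spc24 (-0.30 ± 0.33) and the contractile ring gene Anln (-0.20 ± 0.21) were the farthest. Median number differences were -0.31 in vector and -0.57 in Jagged1 for the replication genes, and -0.17 and -0.40 for the mitosis genes.

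Of 23 regulators of the E2F and DREAM system, 0 passed, and 11 were above 0 and 12 below with a median of -0.04. Both number 2 libraries lay below both number 1 libraries for 13 of the 23 and above for 2. The shares among all tested genes were 26.0% and 25.8%. The farthest from 0 between the lines were Tfdp2, an E2F partner (0.44 ± 0.19), the pocket protein gene Rb1 (0.39 ± 0.40), E2f2 (-0.34 ± 0.28) and E2f5 (-0.26 ± 0.18). Rb1, whose protein holds E2F inactive, was at 13.0 and 22.1 CPM in vector 1 and 2 and 15.8 and 30.3 CPM in Jagged1 1 and 2. It was 1 of the 2 regulators with both number 2 libraries above both number 1 libraries, the order of 25.8% of all tested genes. Mybl2, an activator of mitosis genes, was at 111 and 73.9 CPM in vector and 121 and 51.2 CPM in Jagged1. Foxm1, which acts with it, was at 176 and 140 CPM in vector and 180 and 105 CPM in Jagged1. Thymidine kinase (Tk1), an E2F target among the other replication genes, was at 371 and 276 CPM in vector and 487 and 242 CPM in Jagged1. For Mybl2, Foxm1 and Tk1 both number 2 libraries lay below both number 1 libraries, and the lines overlapped.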

How the data were processed

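Poly(A) RNA of 2 vector and 2 Jagged1 libraries of PyMT-A cells was analysed. The authors deposited whole-number gene counts without normalization, in a table with a column for each library. STAR 2.6.0c, featureCounts 1.6.2 and the mouse build mm10 (GRCm38) are named in the submitters' processing notes. Neither the gene annotation nor whether counting used strand is stated there. Of 33677 symbols, 9024 were at 0 in all libraries. Here, edgeR 4.0.16 (R 4.3.3) was fitted to all genes after filterByExpr (minimum count 10) with TMM factors, a robust quasi-likelihood test and Benjamini-Hochberg adjustment at 0.05. The script was tested on simulated data. CPM values use TMM library sizes, and differences between single libraries are of log2 CPM with a prior count of 2. GENCODE M21 gave GC content, for the longest transcript, and exonic length, as the merged exons of all transcripts of a gene. The members and lists were chosen with earlier results of these data known. Members were given in every library if they were an anchor (such as Mki67 or Pcna), among the 6 of their set farthest from 0 between lines, or among the 4 with the largest number differences of like sign. Bub1 and Fen1 were added after their values were seen, as were Mybl2, Foxm1 and Tk1. Alternatives were other scalings and filters, DESeq2 1.42.0, limma-voom (limma 3.58.1), a replicate block and leaving out each library.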

Additional observations from a re-analysis of the deposited data

Results flagged for a closer look

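A total of 10 members moved in opposite directions between library numbers in the lines. They were higher in number 2 in the vector line and lower in number 2 in the Jagged1 line. The pattern was not particular to the members. Of 13299 tested genes, 6653 were lower in number 2 in the Jagged1 line, but only 4540 were lower in both lines. With 1 library per number in each line, the differences between library numbers were not tested. On the log2 CPM scale, number 2 minus number 1 was 1.03 in vector and -0.24 in Jagged1 for Cenpf, and 0.91 and -0.16 for Cenpe. For Bub1 it was 0.43 and -0.58, and for Mki67 0.20 and -0.40. For Kif11 it was 0.0549 and -0.68, for Nusap1 0.0315 and -0.54, and for Ttk 0.0276 and -0.57. Among the S phase genes it was 0.63 and -0.93 for Ccne2, 0.25 and -0.92 for Pola1, and 0.10 and -0.81 for Fen1.

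The median difference of Jagged1 from vector had opposite signs in the number 1 and number 2 libraries. It was 0.0311 and -0.290 for S phase genes and 0.167 and -0.0826 for mitosis genes. That difference was not tested either.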

How the results depend on the processing

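With 2 libraries per line, no member was called in any of the 12 alternatives. The number of genes called was 169 with no low-count filter, 47 with DESeq2 and 17 with the replicate block, and ran from 0 (without vector 1 or without vector 2) to 193 (without Jagged1 1), with 49 without Jagged1 2. With a library left out, the lone library of a line is assumed to vary like the others. The labels do not say that equal numbers were handled together, and with only 2 pairs the check of pairing (r = 0.43 between the number differences of the lines, across genes) does not decide it. With the replicate block the medians of the S phase and mitosis genes were -0.11 and 0.05, and the lowest adjusted p of a member was 0.605 by edgeR with Benjamini-Hochberg adjustment.

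The median line difference ranged on leaving out a library from -0.48 (without Jagged1 1) to 0.21 (without Jagged1 2) for S phase genes, and from -0.21 to 0.30 for mitosis genes without the same libraries. Median number differences in vector and Jagged1 were, for S phase genes and then mitosis genes, -0.33, -0.74, -0.23 and -0.49 with total counts, -0.37, -0.76, -0.27 and -0.51 with upper quartile factors, -0.41, -0.83, -0.32 and -0.58 with no filter, and -0.37, -0.75, -0.27 and -0.50 at a mean of at least 5 CPM. Among the 24 members given by library, the sign changed with limma-voom and with the replicate block for Ccnb1 (-0.00435 and -0.00309), Birc5 (-0.0604 and -0.0578) and Pcna (-0.00914 and -0.00779). Among the others it changed with the block for Mcm4 (-0.0372), Rrm1 (-0.0117) and Cdc25c (-0.00565). Of the S phase and mitosis genes, 4 and 15 were above 0 with the block, and 4 and 16 with limma-voom. The cause was not tested.

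Leaving out 1 library at a time changed the sign of Bub1 (from -0.0965 to 0.49) and Fen1 (from -0.62 to 0.21), which were added later. It also changed the sign of 20 of the 24 members chosen by rule to be given by library. Their log2 fold changes ranged from -0.21 to 0.56 for Top2a, from -0.48 to 0.23 for Cdk1, from -0.34 to 0.31 for Ccnb1, from -0.58 to 0.21 for Ccna2, from -0.46 to 0.22 for Plk1, from -0.53 to 0.40 for Birc5 and from -0.0165 to 0.56 for Ttk. They ranged from -0.0686 to 0.61 for Kif11, from -0.67 to 0.23 for Mcm2, from -0.75 to 0.17 for Mcm5, from -0.78 to 0.16 for Mcm6, from -0.82 to 0.33 for Cdc6, from -0.66 to 0.18 for Mcm10 and from -0.49 to 0.41 for Gins1. For the others with a sign change they ran from -0.31 to 0.62 for Pola1, from -0.44 to 0.38 for Pcna, from -0.72 to 0.18 for Rrm2, from -0.41 to 0.50 for Ccne1, from -0.14 to 0.79 for Ccne2 and from -0.36 to 0.0802 for E2f1. Without a sign change, they ran from 0.00112 to 0.89 for Cenpe and from 0.0746 to 1.08 for Cenpf (without vector 1 and without vector 2), and from 0.0741 to 0.62 for Nusap1 and from 0.13 to 0.53 for Mki67 (without Jagged1 1 and without Jagged1 2).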
